A study of Mus musculus with 6 samples.

Results

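The genes described here are 7 claudins (Cldn1, Cldn2, Cldn3, Cldn4, Cldn7, Cldn12 and Cldn14) and 2 other tight junction genes, Ocln, which encodes occludin, and Tjp1, which encodes the scaffold protein ZO-1. Every array probe that the platform's annotation assigns to one of these 9 symbols was taken, whatever its value. This gave 10 probes of the 45281 on the array: Cldn2 had 2 probes and each of the other genes 1. All 10 lay above the median intensity of their array on each of the 6 arrays.

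The study measured gene expression on Illumina bead arrays in primary hepatocytes isolated from male C57Bl/6J mice and plated on collagen. The groups were untreated cells, cells given 2 ng/mL recombinant murine TNFα for 2 hours, and cells given that dose for 2 days, with 2 arrays per group. All 3 groups were cultured in Williams' E medium with fetal calf serum, dexamethasone and insulin, so every group was exposed to a glucocorticoid. The labels give neither the animals' age, nor whether a group's 2 arrays stem from different mice or different cultures, nor how long the untreated cells had been cultured. The spread behind the p-values below is that between 2 arrays of a group and may be technical, and at 2 days exposure to TNFα and time in culture cannot be told apart.

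Tight junctions seal the space between neighbouring epithelial cells. Claudins form the strands of the seal: some members tighten it, while others, of which Cldn2 is the best known, form pores for small cations and water. In the liver these junctions border the bile canaliculi, the channels between hepatocytes into which bile is secreted, and so separate bile from blood. Occludin is a membrane protein of the strands, and ZO-1 binds claudins and occludin on the cytoplasmic side and links them to actin.

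The values are linear intensities. The array medians lay between 143.16 and 143.22, and the arrays shared 1 distribution of values. Differences below are log2 differences of group means, given with their SE (standard error) and a p-value from limma, a linear model fitted over 26272 probes with Benjamini-Hochberg adjustment, and a probe was called at an adjusted p under 0.05. The TNFα response genes Cxcl1, Icam1, Tnfaip3 and Nfkbia were higher in the treated arrays, by 2.43 to 3.98 at 2 hours and by 0.85 to 1.99 at 2 days on the probe of each with the larger difference. Of 12 hepatocyte markers, 11 had a probe that passed the filter on dim probes. The summed intensity of those markers was 108714 to 115520 in untreated arrays, 110500 to 110840 at 2 hours and 60907 to 63774 at 2 days. At 2 days 6 of the 11 were called lower and 0 higher, with differences of unlike size. The log2 difference was -0.82 for Apoa1 and for Hnf4a, -1.12 for Hpd, -1.605 for Asgr1 and -2.97 for Cyp3a11. It was -3.10 and -3.31 for the 2 probes of Cps1. Apob (-0.0061) and Ttr (-0.28) were not called, nor were the dim probes of Alb, Pck1 and Fgb. For a gene that was lower, fewer cells expressing it and less RNA per cell cannot be told apart in these bulk samples. Summed markers of stellate cells were 3696 to 4242 in untreated arrays, 3734 to 4029 at 2 hours and 4640 to 5453 at 2 days. Without Acta2, of which 2 probes were higher at 2 days, they were 1542 to 1543, 1709 to 1721 and 1453 to 1576. Of Reln, 1 probe was higher at 2 hours (0.43) and lower at 2 days (-0.82). Summed markers of macrophages were 1191 to 1233, 1172 to 1224 and 1410 to 1575, with C1qa, C1qb and C1qc higher at 2 days and the other 4 markers not called. Those of endothelial cells were 2477 to 2579, 2508 to 2673 and 2486 to 2503. Of these, Stab2 alone was called, lower at 2 days (-0.37 against untreated cells and -0.56 against 2 hours). Summed markers of lymphocytes and neutrophils were 275 to 286, 266 to 304 and 273 to 279. That sum held only 2 of 8 genes with a named probe, Cd3e and Cd79b. Their passing probes read 128 to 155 and 130 to 149, near the array medians, and so say little about these cells. The part of the 2-day changes of all these marker lists in the claudin results was not tested.

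At 2 hours 2 of the 10 probes were called, Cldn1 and Cldn12, both lower; of all probes tested 1.89% were called, 1.24% higher and 0.651% lower. At 2 days against untreated cells 4 were called, Cldn4 higher and Cldn1, Cldn14 and 1 probe of Cldn2 lower; of all probes 9.63% were called, 4.96% higher and 4.67% lower. Between 2 days and 2 hours 4 were also called, Cldn3 and Cldn4 higher and Cldn14 and the other probe of Cldn2 lower; of all probes 11.6% were called, 6.09% higher and 5.49% lower. Cldn7, Ocln and Tjp1 were called in none of the 3 comparisons. Groups of 2 arrays often separate without a call. At 2 hours the arrays of 6 of the 10 probes did not overlap with the untreated ones, 5 of them lower (38.4% of all probes in either direction, and 20.8% lower). At 2 days 8 did not overlap with the untreated arrays, 6 of them lower (47.0% of all probes, and 23.5% lower), and 6 did not overlap between the 2 times, 4 of them lower (49.5% and 23.4%). The median log2 difference of the 10 probes was -0.14 at 2 hours and -0.29 at 2 days, and that of all probes -0.01 and -0.0011. Both comparisons with untreated cells use the same 2 untreated arrays. The genes had been chosen with results of these data known, so these shares describe them and carry no test.

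**Figure D1:**
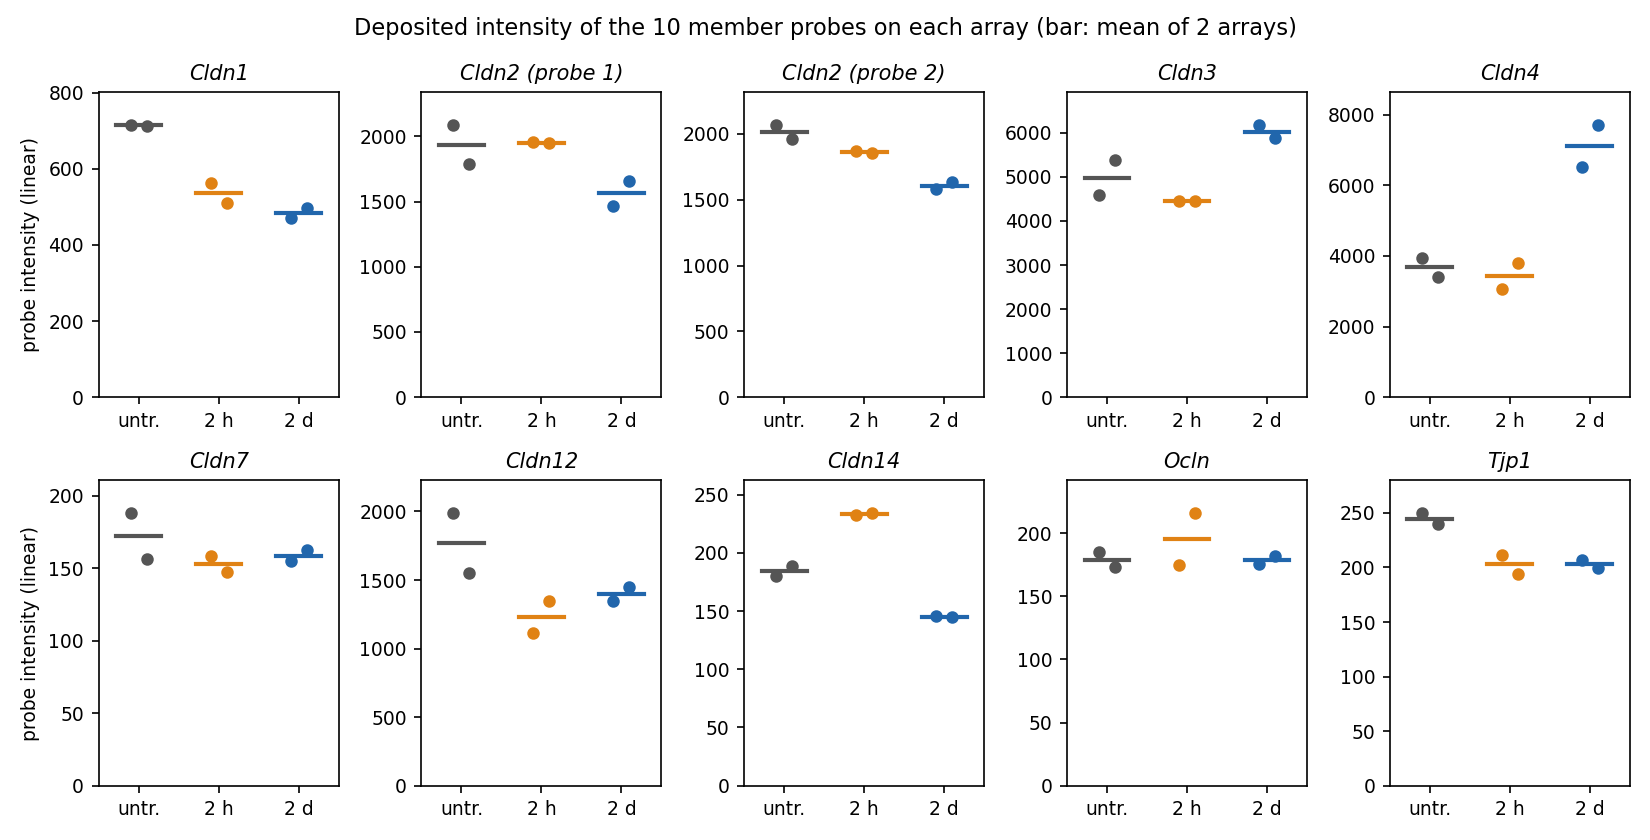
Intensity of each of the 10 probes on each of the 6 arrays (points, linear axis), by group: untreated, 2 hours and 2 days of TNFα. The bar is the group mean. Cldn4 at 2 days (6507 and 7712) lies above its other 4 arrays, and Cldn14 has 3 groups that do not overlap.

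Cldn4, a claudin that generally tightens epithelia, showed the largest difference of the 10 probes. Its intensity was 3943 and 3414 in the untreated arrays, 3056 and 3800 after 2 hours and 6507 and 7712 after 2 days. The untreated and 2-hour arrays overlapped, and both 2-day arrays lay above them. The 2-day level was 1.93 times the untreated level, a log2 difference of 0.95 (SE 0.12, limma adjusted p = 3.39e-06, n = 2 against 2 arrays). Against 2 hours it was 2.08 times as high, a difference of 1.06 (limma adjusted p = 6.38e-07). At 2 hours the difference from untreated cells was -0.11, with a limma adjusted p of 0.86. Both 2-day calls were kept under all 20 alternatives of processing, which include leaving out each array.

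Cldn4 is also expressed by bile duct cells, so the bile duct markers are given beside it. Their summed intensity, over 6 genes with a passing probe, was 2236 to 2281 in untreated arrays, 2934 to 2958 at 2 hours and 4390 to 4721 at 2 days. Without Sox9, a transcription factor of bile duct cells, the sum over the other 5 genes was 1239 to 1273, 1243 to 1261 and 1279 to 1281. Of the 6, Sox9 alone was called, and the keratins Krt7 and Krt19 differed by 0.09 and 0.19 at 2 days. Probes of Epcam, Cftr and Tspan8 did not pass the filter on dim probes. The part of bile duct cells in the Cldn4 result was not tested further.

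Cldn3, which also tightens epithelia, had an intensity of 4582 and 5378 in the untreated arrays. It read 4446 on each 2-hour array and 6185 and 5874 after 2 days. The 2-day arrays lay above the rest, and the 2-hour arrays just below the untreated ones. Cldn3 was 1.36 times as high at 2 days as at 2 hours, a log2 difference of 0.44 (limma adjusted p = 0.0046). Its differences from untreated cells were -0.16 at 2 hours and 0.28 at 2 days, with limma adjusted p-values of 0.68 and 0.094. Without the first 2-day array the difference from 2 hours was 0.40 (limma adjusted p = 0.051), and without the second untreated array the 2-day difference from untreated cells was 0.40 (limma adjusted p = 0.041).

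Cldn4 and Cldn3 are neighbours on mouse chromosome 5. In RefSeq annotation of assembly GRCm38.p6 their start sites lie 39280 bases apart on opposite strands, with 0 listed genes between them. All 9 genes matched a RefSeq promoter, 15 promoters in all. The 250 bases before the start site are shown for these neighbours, both higher at 2 days than at 2 hours, and for Cldn1, the gene with the widest fall from untreated cells. Cldn4 is at chr5:134946935-134947184 on the minus strand, Cldn3 at chr5:134985964-134986213 on the plus strand and Cldn1 at chr16:26371840-26372089 on the minus strand. Each is printed 5′ to 3′ with capitals marking matches to a searched motif.
Cldn4: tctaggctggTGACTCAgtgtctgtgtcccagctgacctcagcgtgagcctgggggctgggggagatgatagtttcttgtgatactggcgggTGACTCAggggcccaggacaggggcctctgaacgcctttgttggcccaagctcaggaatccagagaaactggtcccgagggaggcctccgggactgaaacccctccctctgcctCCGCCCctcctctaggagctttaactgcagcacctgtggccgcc
Cldn3: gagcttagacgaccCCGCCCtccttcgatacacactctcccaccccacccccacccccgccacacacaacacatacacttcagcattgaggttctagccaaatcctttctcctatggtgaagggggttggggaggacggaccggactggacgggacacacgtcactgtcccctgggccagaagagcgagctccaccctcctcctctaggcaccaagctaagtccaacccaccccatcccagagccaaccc
Cldn1: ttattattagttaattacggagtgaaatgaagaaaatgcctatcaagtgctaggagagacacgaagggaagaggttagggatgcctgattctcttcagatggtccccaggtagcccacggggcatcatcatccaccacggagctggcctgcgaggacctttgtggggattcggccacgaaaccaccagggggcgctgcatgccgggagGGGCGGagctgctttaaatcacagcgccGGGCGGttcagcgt
The motifs, searched on both strands, were the AP-1 site TGANTCA, the GC box GGGCGG, the E-box CACGTG, the TATA box TATAAA, the grainyhead-like site AACCGGTT and the NF-κB consensus. The Cldn4 window held 2 AP-1 matches, both reading TGACTCA, with first bases 240 and 158 before the start, and 1 GC box at 44. None of the other members' promoters held an AP-1 match. Of 32817 promoters of this length 6.75% held at least 1 and 0.34% at least 2. GC boxes stood in all 3 windows shown and in 32.7% of all promoters. The NF-κB consensus matched in 0 of the 15 members' promoters and in 7.25% of all. In the windows shown no match overlapped another, and a match is a description of the letters and not evidence of binding.

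Cldn1, whose product is needed for a tight barrier in skin and is present in hepatocytes, was lower after both exposures. The untreated arrays read 716 and 712, the 2-hour arrays 563 and 509, and the 2-day arrays 472 and 498. Untreated arrays lay above all 4 treated ones, and the 2-hour and 2-day arrays did not overlap but lay close together. Cldn1 fell to 0.75 of its untreated level at 2 hours, a log2 difference of -0.41 (SE 0.098, limma adjusted p = 0.023). At 2 days it stood at 0.68 of that level, with a difference of -0.56 (limma adjusted p = 3.26e-04). The 2 exposures differed by -0.14 (limma adjusted p = 0.44), with a 95% interval from -0.35 to 0.06. The 2-hour call was lost without the first untreated array (-0.41, limma adjusted p = 0.13), the second untreated array (-0.42, 0.11) and the second 2-hour array (-0.34, 0.31), while the 2-day call was kept without each array. After normexp background correction neither was called (limma adjusted p = 0.37 and 0.063).

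Cldn14, another claudin that restricts cation passage, was lower at 2 days than at 2 hours. Its intensity was 180 and 189 in the untreated arrays, 232 and 234 at 2 hours and 145 and 145 at 2 days. The 3 groups did not overlap. From 2 hours to 2 days Cldn14 fell to 0.62 of its level, a log2 difference of -0.69 (limma adjusted p = 1.76e-05), and that call was kept under all 20 alternatives. Against untreated cells it was lower at 2 days by -0.35 (limma adjusted p = 0.020), and its 2-hour difference of 0.34 was not called (limma adjusted p = 0.081). The 2-day call against untreated cells was lost whichever of its 4 arrays was left out: -0.38 without the first untreated array, -0.31 without the second, -0.35 without the first 2-day array and -0.34 without the second, with limma adjusted p-values from 0.057 to 0.13. The probe was dim, between the 52.0th and 78.0th percentile of its array, and background correction by normexp widened the 2-day difference from 2 hours to -1.40 (limma adjusted p = 0.0032).

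Cldn2, the claudin that forms pores for cations and water, was read by 2 probes. The first, ILMN_1255479, gave 2090 and 1785 in untreated arrays, 1955 and 1948 at 2 hours and 1469 and 1661 at 2 days. The second, ILMN_2980323, gave 2070 and 1960, then 1874 and 1855, then 1580 and 1634. On both probes the 2-day arrays lay below all other arrays. The first probe differed from untreated cells by 0.01 at 2 hours and by -0.31 at 2 days (limma adjusted p = 0.99 and 0.070), and the second by -0.11 and -0.33 (0.80 and 0.031). Between 2 days and 2 hours the first fell by 0.32 on the log2 scale (limma adjusted p = 0.048), and the second differed by -0.21 (0.18).

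Neither Cldn2 call survived the loss of single arrays. The second probe's 2-day difference from untreated cells was -0.29 without the first untreated array, -0.37 without the second, -0.30 without the first 2-day array and -0.35 without the second, with limma adjusted p-values from 0.063 to 0.21. The first probe's 2-day difference from 2 hours was -0.32 without either 2-hour array (limma adjusted p = 0.17 for each) and -0.23 without the first 2-day array (0.35). Without the second untreated array the first probe was called against untreated cells at 2 days (-0.42, limma adjusted p = 0.033).

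Cldn12, a claudin that lacks the usual cytoplasmic binding motif for ZO proteins, was lower at 2 hours. Its untreated arrays read 1987 and 1554, its 2-hour arrays 1110 and 1346 and its 2-day arrays 1345 and 1449. Both treated groups lay below the untreated one. The 2-hour level was 0.70 of the untreated level, a log2 difference of -0.52 (SE 0.12, limma adjusted p = 0.015), and the 2-day difference of -0.33 was not called (limma adjusted p = 0.084). The 2-hour call was lost without the first untreated array (-0.35, limma adjusted p = 0.34) and without the first 2-hour array (-0.38, 0.32), and its adjusted p was 0.060 when the probes of each gene were averaged, which changed the number of tests and not its value. Without the second untreated array the 2-day difference was -0.51 (limma adjusted p = 0.013).

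Tjp1 gave 250 and 240 in untreated arrays, 211 and 194 at 2 hours and 206 and 199 at 2 days. The treated arrays all lay below the untreated ones and overlapped each other. Its differences from untreated cells were -0.27 at both times, with limma adjusted p-values of 0.24 and 0.090 and 95% intervals from -0.47 to -0.07. Ocln gave 185 and 173, then 175 and 216, then 175 and 182, with all groups overlapping. Its 2-day difference was -0.0042, with a 95% interval from -0.22 to 0.22. Cldn7, expressed mostly in other epithelia, gave 188 and 156, then 159 and 147, then 155 and 162. Its differences were -0.17 at 2 hours and -0.11 at 2 days, and the 2-day interval ran from -0.33 to 0.11. These 3 probes were dim, between the 55.0th and 79.0th percentiles of their arrays, and after normexp the 2-day differences of Tjp1 and Cldn7 were -0.46 and -0.24, neither called.

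**Figure D2:**
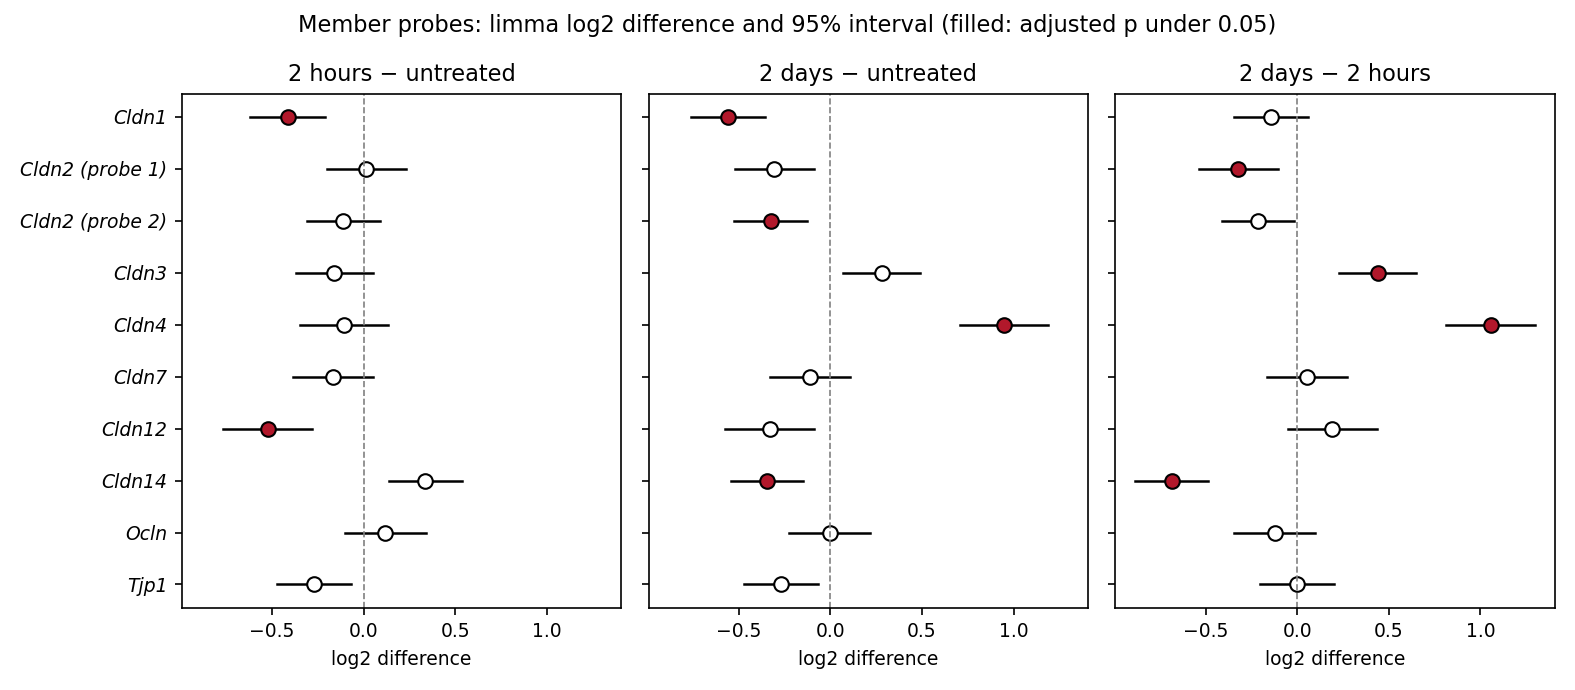
Log2 difference of each of the 10 probes in the 3 comparisons, with 95% intervals from limma. Cldn4 stands apart on the higher side at 2 days (0.95 against untreated cells and 1.06 against 2 hours), and Cldn14 has the lowest value between 2 days and 2 hours (-0.69).

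Background correction changed the sizes for dim probes and the number of calls. After normexp, 0 of the 10 probes were called at 2 hours (0.426% of all probes), against 2 on the deposited scale. Cldn4 and Cldn14 were the 2 called at 2 days in both comparisons (2.76% of all probes against untreated cells and 3.67% against 2 hours), Cldn4 with 0.97 against untreated cells (limma adjusted p = 0.035) and Cldn14 with -0.79 (0.031). On the deposited scale 4 probes at 2 hours had an unadjusted p under 0.05, 1 of them higher (Cldn14) and 3 lower; of all probes 10.2% did, 4.73% higher and 5.47% lower. At an adjusted p under 0.1, 8 were called at 2 days against untreated cells, beside 12.5% of all probes.

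**Figure D3:**
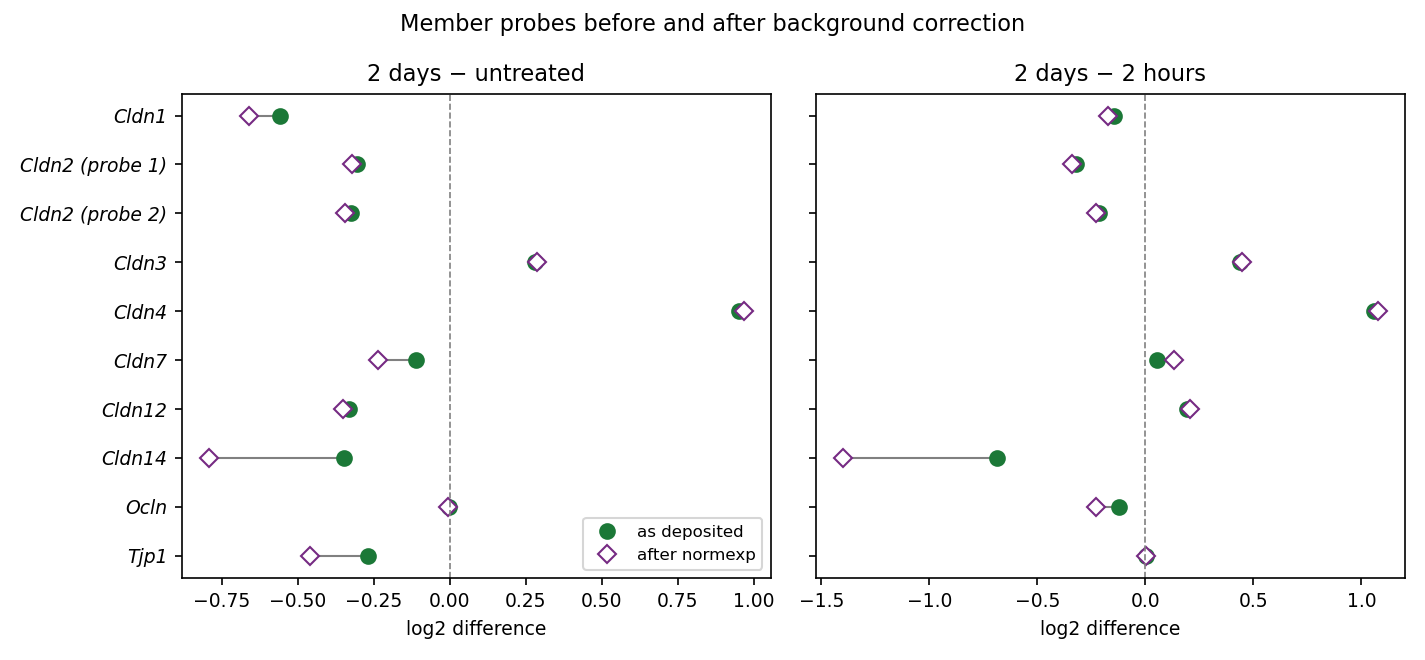
Log2 differences of the 10 probes as deposited and after normexp background correction, for 2 days against untreated cells and 2 days against 2 hours. Cldn4 barely moves (0.95 to 0.97 against untreated cells), while the dim Cldn14 probe moves from -0.35 to -0.79.

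The rest of the junction was described through 6 fixed lists: other claudins, other tight junction membrane proteins, plaque and polarity proteins, adherens junction, gap junction and desmosome genes. Of their 91 genes with a named probe, 70 had a probe that passed the filter, 141 probes in all. At 2 hours 3 of the 141 were called, 2 higher and 1 lower (2.13%, beside 1.89% of all probes). At 2 days 25 were called, 13 higher and 12 lower (17.7%, beside 9.63%). Between 2 days and 2 hours 25 were called, 15 higher and 10 lower (17.7%, beside 11.6%). Several of these probes share a gene. With the probes of each gene averaged, 9 of the 70 genes were called at 2 days, beside 1345 of all 13438. Between the times 10 of the 70 were, beside 1645 of 13438.

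Among the other claudins, 8 probes of 7 genes passed, and none was called at 2 days by limma. There 1 had an unadjusted p under 0.05, beside 5075 of all 26272 probes tested. Cldn23 was lower at 2 hours (-0.38, limma adjusted p = 0.045), and lost that call without each of its 4 arrays, with values from -0.46 to -0.31, and with the replicate number as a block (0.068). Of 16 probes of other tight junction membrane proteins, 2 were higher at 2 days: 1 of 3 probes of Igsf5, a junctional adhesion molecule, by 0.48 and the probe of F11r, which encodes JAM-A, by 0.33. The other Igsf5 probes differed by -0.04 and 0.18 and were not called.

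Of 66 plaque, polarity and signalling probes, 5 were higher and 2 lower at 2 days. Pard6g, a polarity protein of the PAR complex, read 167 and 181 in untreated arrays, 326 and 313 at 2 hours and 243 and 274 at 2 days. No groups overlapped, and the differences from untreated cells were 0.88 at 2 hours (limma adjusted p = 3.44e-06) and 0.57 at 2 days (3.32e-04). Of Cgnl1, which encodes the junction plaque protein paracingulin, 1 of 2 probes was higher at 2 days by 0.51 (limma adjusted p = 0.0033), and by 0.31 without the first 2-day array (0.15), while the other differed by 0.20 and was not called. Of Llgl1, a basolateral polarity protein, 1 of 2 probes was higher by 0.46 and the other differed by 0.25, not called. Wwtr1, which encodes the transcriptional coactivator TAZ, had 1 of 3 probes lower (-0.43) and the others at -0.10 and 0.03, not called.

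Adherens junctions lie beside tight junctions and join cells through cadherins and nectins. Of 24 probes, 5 were higher and 1 lower at 2 days. Cdh1, which encodes E-cadherin, had 2 tested probes that disagreed. Probe ILMN_2628629 read 821 and 859 in untreated arrays, 1222 and 1115 at 2 hours and 1073 and 1360 at 2 days. On it both treated groups lay above the untreated one, by 0.48 at 2 hours (limma adjusted p = 0.020) and 0.52 at 2 days (0.0021). The 2-hour call was lost without each of its 4 arrays (values from 0.41 to 0.54), and the 2-day difference without the second 2-day array was 0.35 (limma adjusted p = 0.10). The other Cdh1 probe differed by 0.02 at 2 hours and -0.02 at 2 days and was not called, and the mean of both probes was not called at either time (0.25 at each, limma adjusted p = 0.42 and 0.20). Nectin2 was higher on all 3 of its probes, by 0.36 to 0.41. Afdn, the nectin-binding protein afadin, was higher on 1 of 2 probes (0.44; the other 0.34, not called), and Nectin3 lower on 1 of 3 (-0.44; the others -0.07 and -0.31, not called).

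Of 9 gap junction probes, 1 was higher and 3 lower at 2 days, and the 3 were the 3 probes of Gjb2, which encodes connexin 26, a channel protein between hepatocytes. Its probe ILMN_2999627 read 4534 and 3666 in untreated arrays, 3059 and 3526 at 2 hours and 1842 and 1625 at 2 days. The 2-day arrays lay below all others, with a difference of -1.24 (limma adjusted p = 3.59e-08), and the other 2 probes fell by 0.99 and 0.71. Panx1, a membrane channel protein, was higher on 1 of 2 probes by 0.52, and the other differed by 0.24, not called. Of 18 desmosome probes, 6 were lower and 0 higher at 2 days, beside 4.67% of all probes lower and 4.96% higher. At an unadjusted p under 0.05, 6 were lower and 0 higher, beside 2439 and 2636 of all 26272 probes tested. The 6 called lower were 3 probes of Ppl, which encodes periplakin (-0.97, -0.50 and -0.38), and 1 each of Dsg2 (-0.41), Pkp4 (-0.36) and Pkp2 (-0.31). The uncalled probes of these genes were 3 of Dsg2 (-0.14 to -0.03), 4 of Pkp4 (-0.18 to -0.02) and 2 of Pkp2 (-0.11 and -0.10). Of the 7 desmosome genes with a tested probe, these 4 alone had a call at 2 days. The Pkp2 call was also lost with the replicate number as a block (limma adjusted p = 0.059).

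Of the 16 junction genes named by the rule at 2 days against untreated cells, 5 kept their call whichever array was left out: Pard6g, Nectin3, Gjb2, Panx1 and Ppl. The other 11, among them Igsf5, F11r, Llgl1, Wwtr1, Afdn, Nectin2, Dsg2, Pkp4 and Pkp2, lost it without at least 1 array. When the probes of a gene were averaged, 7 of the 16 lost their call: Igsf5, Wwtr1, Cdh1, Nectin3, Dsg2, Pkp4 and Pkp2. After normexp 3 of the 16 were called: Pard6g, Gjb2 and Ppl. Between 2 days and 2 hours 8 of 15 named genes kept the call of the probe named without each array. Higher at 2 days were a probe each of Cgnl1 (0.64), Panx1 (0.59) and Afdn (0.51), and lower were a probe each of Gjb2 (-0.99), Ppl (-0.74), Pkp2 (-0.55) and Nectin3 (-0.48). The eighth was 1 of 4 probes of Ctnnb1, which encodes β-catenin, the partner of E-cadherin (0.51). Its other probes lay between -0.11 and 0.12, none called, and their mean with it was 0.13 (limma adjusted p = 0.38). The other tested probes of Cgnl1 (0.17), Panx1 (0.22), Afdn (0.30), Pkp2 (-0.26 and -0.06) and Nectin3 (-0.28 and -0.08) were not called. Gjb2 was called lower on its other 2 probes too, and Ppl on 1 of 2. After normexp Gjb2, Ppl and Panx1 alone of these 8 kept the call of the probe named.

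**Figure D4:**
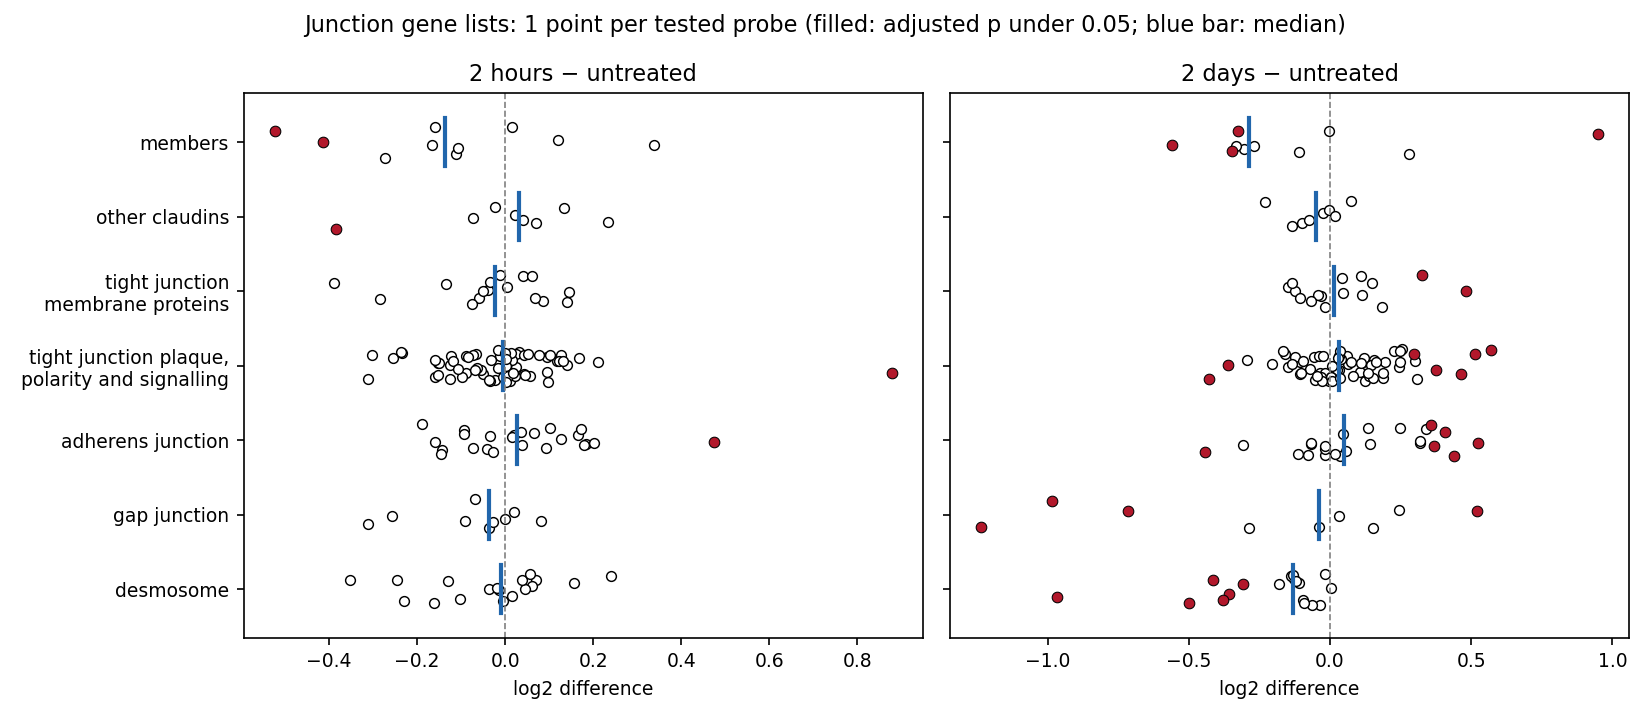
Log2 difference from untreated cells at 2 hours and at 2 days for the member probes and every passing probe of the 6 other junction lists. Points are spread vertically at random within a list and filled where limma's adjusted p is under 0.05. The bar is the list's median. At 2 days the 18 desmosome probes have a median of -0.13 with 6 filled points, all lower.

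The genes whose 6 centred log2 values lay closest to each called claudin were listed by Euclidean distance over the 6 arrays. The values were not scaled, so a distance depends on the size of a probe's differences as well as on their pattern. For Cldn4, which had the largest difference, they were Ms4a6d (0.24), Selenon (0.24) and Osbpl3 (0.27), farther than for any of the other called claudins. For Cldn14 they were Tmem269 (0.068), Acaa2 (0.10) and Mpst (0.14). For Cldn1 they were Mast3 (0.11), Aqp9 (0.12) and Glyat (0.14), and for Cldn12 Znrd1as, Rhpn2 and Retreg2, between 0.18 and 0.23. For Cldn3 they were Dctn2, Inppl1 and Mtap, between 0.065 and 0.093. The 2 Cldn2 probes had different neighbours: Pigf, Cyp2d40 and Gstm7 for the first and Eif2s2, Dgkq and Afm for the second.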

How the data were processed

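The authors deposited linear intensities for 45281 probes of 6 Illumina arrays, 2 per group; per the deposited table's values the columns share 1 distribution, with sorted columns differing by at most 0.333%, and background is still present. The normalization software was not given in the sources used. Log2 of the deposited intensity was tested with limma 3.58.1 in R 4.3.3 (lmFit and eBayes, a mean per group, 3 contrasts, residual degrees of freedom 3 and prior 19.14). Probes above the 50th percentile on at least 2 arrays were kept (26272), each on its own; p-values were adjusted over them by Benjamini-Hochberg and called under 0.05. The platform annotation gave 1 symbol for 34885 probes, several for 18 and none for 10378, and 34807 were matched to a RefSeq symbol by Entrez identifier. The fit was tested on simulated data.

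Members and gene lists were chosen with earlier results of these data known. Named were all 9 members, up to 4 genes per junction list and comparison with the largest called difference, the 3 nearest patterns per called member, and 4 TNFα response genes. Alternatives were background correction (normexp with an offset of 16), an offset of 16 before log2, cyclic loess, median centring or repeated quantile normalization, other filters, 1 probe per gene or the mean of probes, a trended and robust variance, 2-group fits, a replicate block, other thresholds and each array left out. Promoter sequences are RefSeq's, on GRCm38.p6. Probe sequences were not analysed here, so cross-hybridization among claudins was not tested.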

Additional observations from a re-analysis of the deposited data

Results flagged for a closer look

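Between the 2 exposures 4 claudin probes differed by a direct test, the contrast of 2 days against 2 hours in limma (n = 2 against 2 arrays, adjusted over 26272 probes). Cldn4 was higher at 2 days by 1.06 and Cldn3 by 0.44. Cldn14 was lower at 2 days, with a log2 difference of -0.69, and so was Cldn2 probe ILMN_1255479, with -0.32. In each of these 4 both 2-day arrays lay on the stated side of both 2-hour arrays. Of all probes 11.6% were called in this comparison, and the arrays of 49.5% did not overlap in either direction. After normexp the Cldn3 and Cldn2 calls were lost and those of Cldn4 and Cldn14 kept. With 2 arrays per group no single array could be tested as an outlier.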

How the results depend on the processing

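Calls depended most on background correction, the threshold and single arrays. After normexp 112 probes were called at 2 hours (99 higher and 13 lower, beside 325 and 171 on the deposited scale), 725 at 2 days and 965 between 2 days and 2 hours; members then had 0, 2 and 2 calls and the other junction probes 1, 6 and 6. At an adjusted p under 0.01 the counts were 300, 1559 and 1910 for all probes, 0 and 2 for members at 2 hours and 2 days, and 1, 15 and 14 for other junction probes; at 0.1 members had 8 at 2 days, beside 12.5% of all probes. After averaging the probes of each gene 250, 1345 and 1645 genes of 13438 were called, and 9 and 10 other junction genes at 2 days and between the times; with 1 probe per gene these were 15 and 12 of 70. Leaving out 1 array gave 281 to 518, 1637 to 2449 and 1939 to 3181 calls over all probes, 0 to 2, 2 to 5 and 2 to 4 members, and 1 to 3, 12 to 23 and 12 to 26 other junction probes; a group with 1 array left was assumed to vary like the others.

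Signs turned only for values that were not called. With cyclic loess these were Ocln at 2 days (5.35e-04) and Tjp1 between the times (-0.0046), and after averaging probes Cldn2 at 2 hours (-0.048). With 1 array left out, the values that crossed 0 at 2 hours were Cldn2 ILMN_1255479 (-0.099 without the second untreated array, 0.13 without the first), Cldn4 (-0.26 without the second 2-hour array, 0.051 without the first) and Ocln (-0.032 without the second 2-hour array, 0.27 without the first). At 2 days they were Cldn7 (-0.24 to 0.021) and Ocln (-0.051 to 0.042), both highest without the first untreated array, and Nfkbia ILMN_1218605 (-0.0097 without the first 2-day array, 0.28 without the second). Between the times they were Cldn7 (-7.17e-05 to 0.11), Ocln (-0.28 to 0.027) and Tjp1 (-0.060 to 0.063), each on the crossed side without the second 2-hour array. The cause of these changes was not tested.

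Same-numbered arrays showed no shared deviation (correlations of deviations from -0.12 to 0.02). This cannot tell whether the numbers pair the samples, since a small shared effect could be missed. With the replicate number as a block 438, 2298 and 2843 probes were called, 2, 4 and 3 of them members, and Cldn2 ILMN_1255479 lost its call between the times (limma adjusted p = 0.066), Cldn23 at 2 hours (0.068) and Pkp2 at 2 days (0.059).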
